A study of Rattus norvegicus with 10 samples.

Results

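The oil effect under adequate choline was read from 4 of the 10 kidney arrays of the series: 2 from rats on a fish oil diet with choline and 2 from rats on a corn oil diet with choline. All 29214 probe sets were tested. The animals were male weanling Wistar rats, killed after 6 days on the diets, and each array carried RNA pooled from 3 animals. All rats, of every group, were anaesthetised with sodium pentobarbital at 40 mg per kg. The fish oil is menhaden oil. The fat called corn oil in the sample labels is named in the protocol as corn and hydrogenated vegetable oils, so the comparison is between 2 whole dietary fats. Both groups received choline. The same oil contrast was available in 4 arrays of choline-deficient rats, 2 on fish oil and 2 on corn oil without necrosis in the label, and those arrays are set beside the main comparison. The other 2 arrays, of choline-deficient corn oil kidneys labelled necrotic, entered no contrast. They entered the estimate of spread and the 10-array mean that chose a gene's probe set. The filters and normalizations tried as alternatives used them too. The series asked how choline deficiency damages the kidney and whether fish oil protects it, and the 2 choline-given groups show what the oil alone went with.

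Fish oil is rich in long-chain omega-3 polyunsaturated fatty acids, which are easily oxidised. In rodent tissues such fats are known to activate PPAR alpha, a nuclear receptor that switches on genes of fatty acid oxidation, and to lower SREBP-1 activity, which drives fatty acid synthesis and desaturation. Oxidised lipids can release the transcription factor NRF2 from its inhibitor KEAP1, and NRF2 then raises enzymes that handle quinones, peroxides and glutathione conjugates. The proximal tubule of the kidney lives largely on fatty acid oxidation and also carries much of the organ's conjugation and export of foreign compounds.

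Values are log2 intensities, so a difference of 1 is 2-fold, and differences are fish oil minus corn oil with the standard error of the limma fit (n = 2 pools a side). A probe set was said to rise or fall where its Benjamini-Hochberg adjusted p over all probe sets was under 0.05. The pools of 1 group differed from each other too. Between the 2 fish oil pools, 473 probe sets (1.62%) differed by 2-fold or more, against 166 (0.568%) between the 2 corn oil pools. Fish oil pool 1 had correlations of 0.9874 and 0.9873 with the corn oil pools, and fish oil pool 2 had 0.9912 and 0.9900. The 2 fish oil pools correlated with each other at 0.9906 and the 2 corn oil pools at 0.9952. Fish oil pool 2 was thus closer to corn oil pool 1 than to fish oil pool 1. The arrays carried kidney: Slc34a1, the proximal tubule phosphate transporter, was at 13.86 in both fish oil pools and at 14.00 and 14.03 in the corn oil pools, and Umod, the uromodulin gene of the thick ascending limb, was at 13.38 and 13.63 in fish oil pools and at 13.74 and 13.81 in corn oil pools. In pooled tissue, fewer cells of a type and less RNA per cell cannot be told apart.

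Fish oil went with a small number of called differences. Of 29214 probe sets, 25 rose (0.0856%) and 29 fell (0.0993%), which by gene was 18 of 14506 that rose (0.124%) and 19 that fell (0.131%). Unadjusted p was under 0.05 for 3621 probe sets, 1965 higher and 1656 lower. A difference of at least 2-fold with no overlap between the pools of the 2 oils, a description without a test, was seen in 67 higher (0.229%) and 201 lower (0.688%) probe sets. The genes that rose were led by conjugation and export of foreign compounds (Ugt2b7, Abcc2, Abcc4), by quinone, peroxide and glutathione enzymes (Nqo1, Gstp1, Srxn1, Gpx2, Txnrd1) and by lipid genes (Creb3l3, Angptl4, Acaa1b, Vnn1, Acot7). Those that fell included the fatty acid desaturase Scd, the DNA precursor enzyme subunit Rrm2, matrix genes (Mmp9, Mfap4, Lum) and the growth factor gene Igf1. The calls depend on having both pools of a side: without fish oil pool 1, 3 of the 54 calls passed again, and without fish oil pool 2, corn oil pool 1 or corn oil pool 2, 5 passed in each case. Ugt2b7, Csmd1 and Abcc2 passed in all 4 of these fits.

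**Figure D1:**
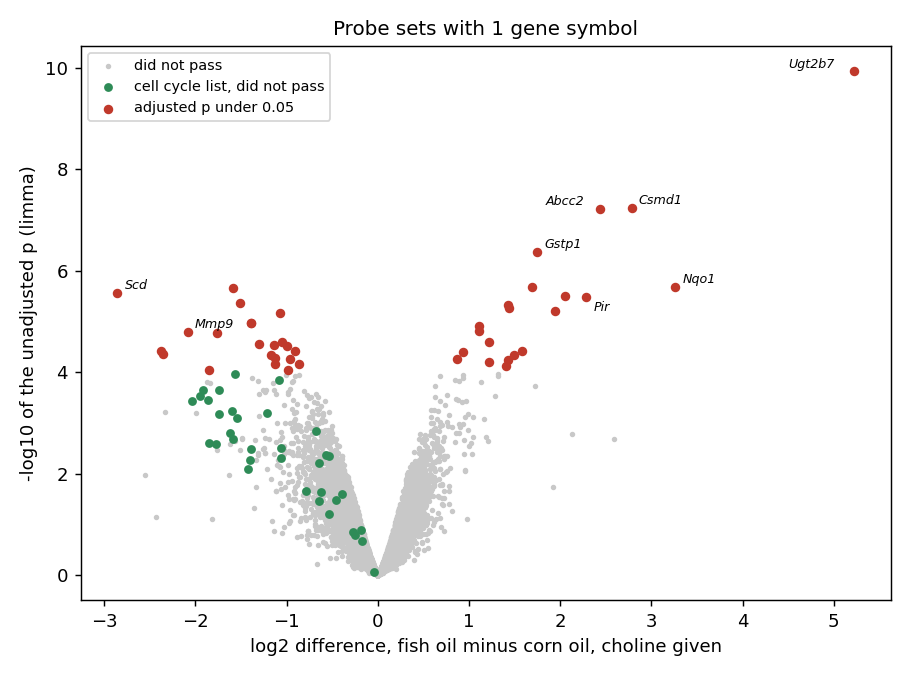
Each point is a probe set with 1 gene symbol, with the log2 difference (fish oil minus corn oil, choline given) on the horizontal axis and minus log10 of the unadjusted limma p on the vertical axis. Ugt2b7 stands alone at a difference of 5.22, red points passed the adjusted threshold, and the cell cycle genes that did not pass (green) lie at negative differences.

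Ugt2b7 had the largest difference of any probe set with 1 gene symbol. It encodes a UDP-glucuronosyltransferase, which attaches glucuronic acid to steroids, fatty acids and drugs. Its level was 11.52 and 11.23 in the fish oil pools, against 6.32 and 6.00 in the corn oil pools, a difference of 5.22 ± 0.15 or 37.2-fold (adjusted p = 3.42e-06). The gap between the oils was many times the gap between pools of the same oil, which passing the threshold favours. The choline-deficient arrays gave nearly the same difference, 4.94 ± 0.15 (adjusted p = 5.48e-06), with levels of 10.63 and 10.74 in fish oil pools and 5.77 and 5.72 in corn oil pools. The related gene Ugt2b35 was at 12.93 and 11.66 in fish oil pools and at 10.13 and 9.27 in corn oil pools. Its difference of 2.59 ± 0.60 did not pass (adjusted p = 0.162). Probes of this gene family can bind transcripts of close relatives, which was not tested.

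Export pumps rose beside it. Abcc2, which pumps glucuronide and glutathione conjugates out across the apical membrane, was at 12.24 and 12.37 in fish oil pools and at 9.78 and 9.94 in corn oil pools, a rise of 2.44 ± 0.14 (5.43-fold, adjusted p = 0.000594). Abcc4, an exporter of organic anions and cyclic nucleotides, had 3 probe sets that all rose, by 1.50 ± 0.20, 1.44 ± 0.15 and 1.43 ± 0.14. The probe set with the highest mean read 12.43 and 12.27 in fish oil pools and 10.91 and 10.93 in corn oil pools. Abcc2 was the only 1 of 14 measured organic ion transporter genes that rose, and none fell (0.124% and 0.131% of all genes). The urate and phosphate carriers Slc17a3 (difference 0.85 ± 0.13, adjusted p = 0.0562) and Slc17a1 (0.76 ± 0.13, adjusted p = 0.0727) lay above corn oil without passing. Among 21 genes of xenobiotic oxidation and conjugation, Ugt2b7 rose and none fell (0.124% and 0.131% of all genes), with a median difference of 0.15. Unadjusted p was under 0.05 in 6 higher and 3 lower members. Cyp1a1, a monooxygenase, was at 9.52 and 9.05 in fish oil pools and at 7.93 and 8.63 in corn oil pools (difference 1.00 ± 0.24, adjusted p = 0.183). Cyp2c11, also a monooxygenase, went the other way at low intensity. It was at 4.15 and 4.35 in fish oil pools and at 5.16 and 5.23 in corn oil pools (-0.94 ± 0.18, adjusted p = 0.101).

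Genes known as NRF2 targets, together with glutathione enzymes, formed the list with the most rises. Of 32 measured members, 6 rose and none fell, against 0.124% of all genes that rose. The list median was 0.57 (median of all genes -0.01), and 28 members had both fish oil pools above both corn oil pools (24.9% of all genes). A difference of at least 2-fold without overlap was seen in 10 members, against 0.221% of all genes, and unadjusted p was under 0.05 in 22 members, all higher. Nqo1, a quinone reductase, was at 11.53 and 11.12 in fish oil pools and at 8.29 and 7.82 in corn oil pools, a rise of 3.26 ± 0.29 or 9.60-fold (adjusted p = 0.00918). Gstp1, a glutathione S-transferase, was at 13.76 and 13.67 in fish oil pools and at 12.02 and 11.92 in corn oil pools, a rise of 1.75 ± 0.13 (adjusted p = 0.00312). Srxn1, which repairs overoxidised peroxiredoxins, was at 7.90 and 7.72 in fish oil pools and at 6.11 and 6.12 in corn oil pools, a rise of 1.69 ± 0.15 (adjusted p = 0.00918). In all 3 genes the gap between the oils was several times the gap between pools of the same oil. Passing the threshold favours such a gap, so it is no separate support.

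Smaller rises of the same list were those of Gpx2, a glutathione peroxidase, at 12.30 and 12.36 in fish oil pools and 11.29 and 10.92 in corn oil pools (1.22 ± 0.15), and of Txnrd1, thioredoxin reductase, at 10.82 and 11.06 in fish oil pools and 9.72 and 9.73 in corn oil pools (1.22 ± 0.17). The sixth riser was Abcc4. Pir, which encodes pirin and is a known NRF2 target in human cells, was not in the list and rose by 2.29 ± 0.22 (adjusted p = 0.00955), with 10.38 and 10.26 in fish oil pools and 8.02 and 8.04 in corn oil pools. Other classical members did not pass. Gclc, the catalytic subunit of glutathione synthesis, overlapped between the oils at 13.87 and 13.77 in fish oil pools and 13.80 and 13.79 in corn oil pools. Its difference was 0.03 with a 95% interval of -0.33 to 0.38. Hmox1, heme oxygenase 1, was the most uneven member at 8.47 and 9.64 in fish oil pools and 6.93 in both corn oil pools, and its difference of 2.13 ± 0.47 did not pass (adjusted p = 0.152). Gsta3 (1.73 ± 0.28, adjusted p = 0.0619) and Gstm1 (1.29 ± 0.22, adjusted p = 0.0733), further glutathione S-transferases, were also above corn oil without passing. The transcript of NRF2 itself, Nfe2l2, differed by 0.20 ± 0.14 and that of its inhibitor Keap1 by 0.21 ± 0.13.

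NRF2 acts through a short DNA element with the core TGACNNNGC, searched here on both strands in the 250 bases before each gene's start in RefSeq (assembly GRCr8). The core was present in 3027 of 27457 genes (11%), in 8 of the 26 NRF2 list genes with an entry (30.8%), in 5 of 16 genes that rose (31.2%) and in 1 of 14 that fell (7.14%). The 5 were Gpx2, Gstp1, Mt1, Pir and Txnrd1. Gpx2, Gstp1 and Txnrd1 are in the NRF2 list too, so the share of the list and that of the genes that rose are not independent. The list is of known NRF2 targets and glutathione enzymes, so its share says nothing about the diets. Nqo1, Srxn1 and Abcc4, which also rose, have entries without these letters in this window. The motif was chosen after the differences were known, and a match shows these letters, not binding. The promoters of 3 genes that rose are shown because each holds the core, in capitals, either as spelled or as its reverse complement. Pir holds it at 2 places, and the first base of the matches lies at -61 in Gstp1, -13 in Gpx2, and -114 and -9 in Pir, counted from the start. All 3 genes are on the minus strand, at chr1:210769706-210769955 (Gstp1), chr6:101230034-101230283 (Gpx2) and chrX:33851050-33851299 (Pir), and the sequences run 5′ to 3′ along the gene.
Gstp1: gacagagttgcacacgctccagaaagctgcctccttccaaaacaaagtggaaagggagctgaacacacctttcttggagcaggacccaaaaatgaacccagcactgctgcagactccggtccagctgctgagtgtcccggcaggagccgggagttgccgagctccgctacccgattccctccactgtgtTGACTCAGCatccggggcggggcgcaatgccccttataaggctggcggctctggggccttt
Gpx2: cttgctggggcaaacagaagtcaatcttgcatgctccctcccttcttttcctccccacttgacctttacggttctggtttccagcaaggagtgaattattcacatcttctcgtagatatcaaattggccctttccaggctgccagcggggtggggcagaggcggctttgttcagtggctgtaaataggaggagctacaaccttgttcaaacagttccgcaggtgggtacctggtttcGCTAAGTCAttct
Pir: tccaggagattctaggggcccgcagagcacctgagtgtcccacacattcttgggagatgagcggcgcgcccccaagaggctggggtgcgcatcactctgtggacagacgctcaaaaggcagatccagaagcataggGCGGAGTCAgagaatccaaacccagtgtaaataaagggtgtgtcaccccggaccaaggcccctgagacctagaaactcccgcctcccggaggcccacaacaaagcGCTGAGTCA

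**Figure D2:**
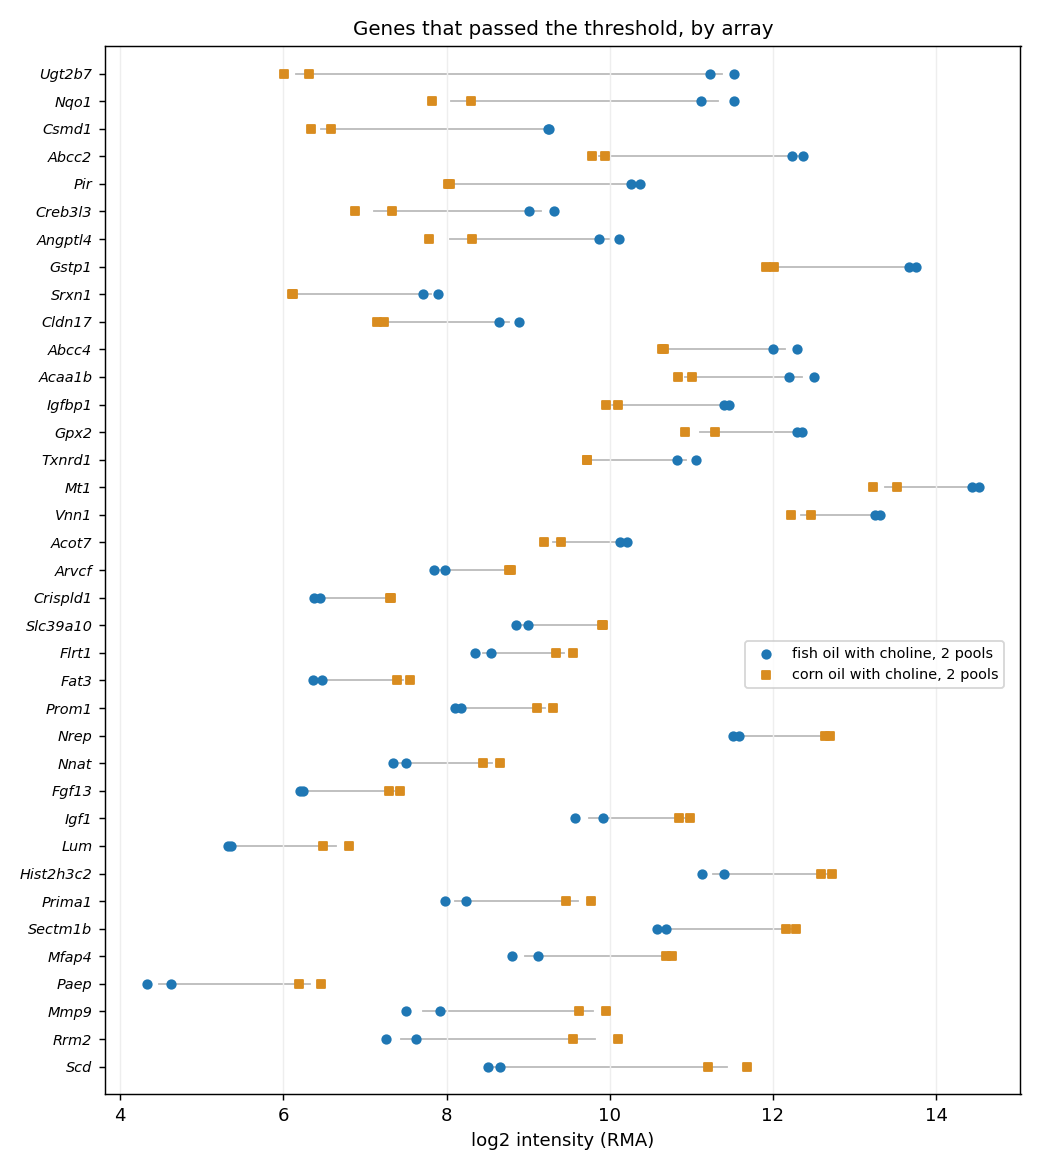
Log2 intensity of the 37 genes that passed, 1 probe set a gene, with fish oil pools as blue circles, corn oil pools as orange squares and a grey line joining the group means. The 18 genes that rose are above and the 19 that fell below. In each the 2 fish oil pools lie wholly to one side of the 2 corn oil pools, which passing the threshold favours.

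Lipid genes moved in both directions. Of 41 measured genes of fatty acid oxidation and PPAR alpha targets, 2 rose and none fell, against 0.124% of all genes that rose. In the list 32 members lay above corn oil without overlap (24.9% of all genes) and 1 below (27% of all genes), and the median was 0.38. Unadjusted p was under 0.05 in 21 members, all higher. Angptl4, a secreted inhibitor of lipoprotein lipase, was at 10.11 and 9.87 in fish oil pools and at 7.79 and 8.31 in corn oil pools, a rise of 1.95 ± 0.20 (adjusted p = 0.0119). Vnn1, a pantetheinase of the coenzyme A cycle, was at 13.25 and 13.31 in fish oil pools and at 12.22 and 12.46 in corn oil pools, a rise of 0.94 ± 0.12 (adjusted p = 0.0328). The other members differed by less or varied more. Eci1 (0.94 ± 0.14, adjusted p = 0.0545), Acsl1 (0.89 ± 0.14, adjusted p = 0.0562) and Pdk4 (1.13 ± 0.18, adjusted p = 0.0566), enzymes of enoyl-CoA isomerisation, fatty acid activation and glucose sparing, came closest to the threshold. Cpt1a, which admits fatty acids to mitochondria, differed by 0.55 ± 0.14 (adjusted p = 0.204), and Ppara itself by 0.34 ± 0.22 (adjusted p = 0.54). Respiratory chain and citrate cycle genes lay close to 0: 31 members spanned -0.20 to 0.20 with a median of 0.02, and 0 passed in limma, also at an unadjusted p under 0.05.

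Outside that list, 3 further lipid genes rose. Creb3l3, a transcription factor of fasting lipid metabolism known from liver and intestine, was at 9.01 and 9.31 in fish oil pools and at 6.88 and 7.33 in corn oil pools, a rise of 2.05 ± 0.19 (adjusted p = 0.00955). Acaa1b, a peroxisomal thiolase, was at 12.50 and 12.20 in fish oil pools and at 10.83 and 11.01 in corn oil pools, a rise of 1.43 ± 0.20. Acot7, an acyl-CoA thioesterase, rose by 0.87 ± 0.12, the smallest rise of a named gene. These 3 genes did not overlap between the oils in any pool, as was so for all 25 probe sets that rose and all 29 that fell. Passing the threshold favours this, so it is no separate support. Of all genes, 24.9% lay above corn oil without overlap and 27% below.

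Scd had the largest fall. It encodes stearoyl-CoA desaturase, which makes monounsaturated fatty acids and is a known SREBP-1 target. Levels were 8.66 and 8.51 in fish oil pools and 11.68 and 11.20 in corn oil pools, a difference of -2.85 ± 0.26 (adjusted p = 0.00955). The isoform gene Scd2 was at 10.40 and 10.15 in fish oil pools and 11.22 and 11.14 in corn oil pools, without passing (-0.90 ± 0.17, adjusted p = 0.107). Of 23 genes of fatty acid synthesis and desaturation, Scd alone fell and none rose (0.131% and 0.124% of all genes), and the median was -0.14. Fads1, the delta-5 desaturase, was at 10.72 and 10.33 in fish oil pools and 11.61 and 11.55 in corn oil pools (-1.05 ± 0.24, adjusted p = 0.16), and Fasn, fatty acid synthase, at 9.73 and 9.35 in fish oil pools and 10.57 and 10.56 in corn oil pools (-1.02 ± 0.26, adjusted p = 0.204). Fads2, the delta-6 desaturase, overlapped between the oils, with a difference of 0.03 and a 95% interval of -0.35 to 0.40. Among 20 genes of cholesterol synthesis and uptake none passed in limma (5 had an unadjusted p under 0.05), 12 lay below corn oil without overlap (27% of all genes), and the median was -0.25.

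**Figure D3:**
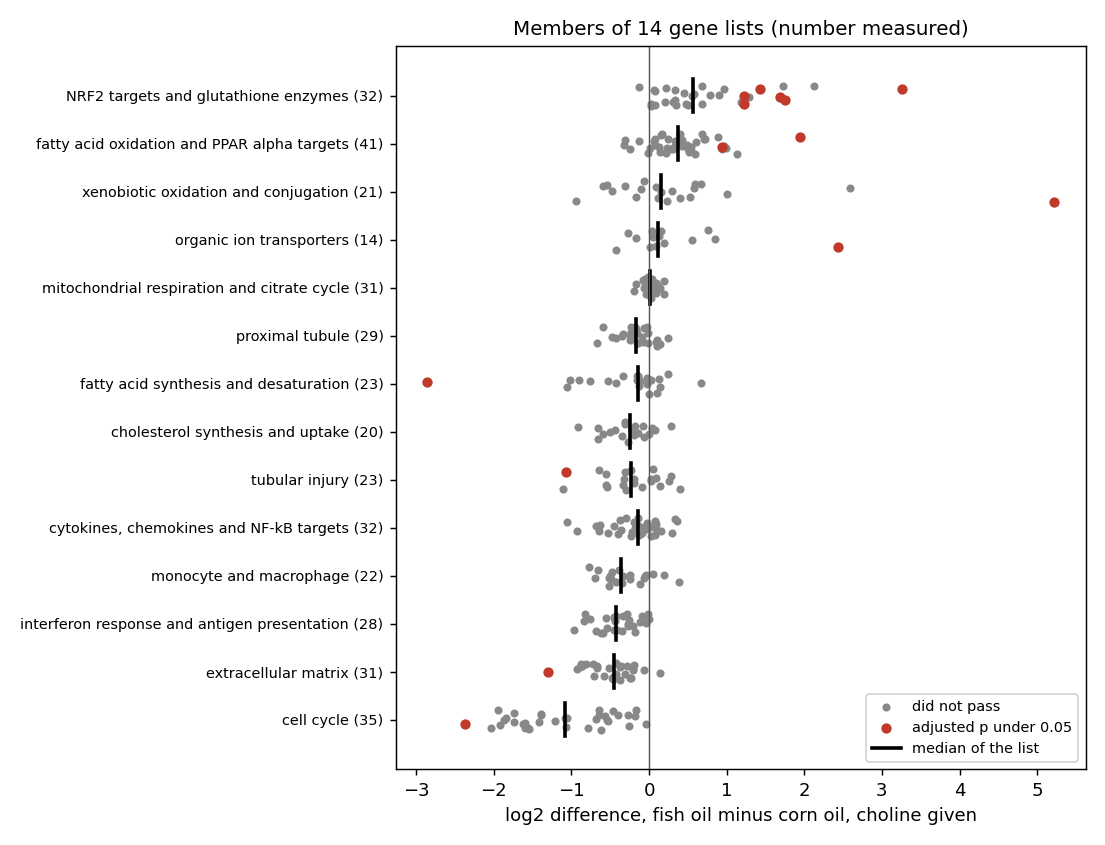
Log2 difference (fish oil minus corn oil, choline given) of each measured member of 14 gene lists, with the number measured in brackets, the list median as a black bar and genes that passed in red. Medians run from 0.57 for NRF2 targets and glutathione enzymes to -1.08 for the cell cycle list, while mitochondrial respiration genes lie within 0.20 of 0.

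Cell cycle genes were lower with fish oil as a group, although 1 of them passed (0.131% of all genes fell). All 35 measured members had a negative difference, against 7444 of all 14506 genes. Below corn oil without overlap lay 34 (27% of all genes), and 20 did so by at least 2-fold, against 0.676% of all genes. The list median was -1.08, and 29 members had an unadjusted p under 0.05. Mean levels of the list were 7.27 and 7.22 in the fish oil pools and 8.51 and 8.20 in the corn oil pools. Rrm2, the regulated subunit of ribonucleotide reductase, was at 7.63 and 7.26 in fish oil pools and at 10.10 and 9.54 in corn oil pools, a fall of 2.37 on the log2 scale (SE 0.31, adjusted p = 0.0321), and a second Rrm2 probe set also fell (-2.36 ± 0.31). Corn oil pool 1 had the highest list mean of these 4 arrays.

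Further members of the list lay below corn oil without passing. Cdk1, the mitotic kinase, was at 6.23 and 6.54 in fish oil pools and at 8.63 and 7.98 in corn oil pools (-1.92 ± 0.32, adjusted p = 0.0666). Top2a, topoisomerase II alpha, was at 6.99 and 7.14 in fish oil pools and at 9.33 and 8.87 in corn oil pools (-2.04 ± 0.36, adjusted p = 0.0802). Aurkb, Aurora kinase B, was at 7.21 and 7.03 in fish oil pools and at 8.84 and 8.53 in corn oil pools (-1.56 ± 0.23, adjusted p = 0.0545). Plk1, the polo-like kinase, differed by -1.74 ± 0.29 and Foxm1, a transcription factor of the late cell cycle, by -1.08 ± 0.17. Pcna, the replication clamp, was an exception in size at 10.28 and 10.38 in fish oil pools and 10.57 and 10.43 in corn oil pools (-0.17 ± 0.13). The histone H3 gene Hist2h3c2 fell in its 3 probe sets (-1.39 ± 0.15 in a pair with identical values and -0.96 ± 0.13 in the third), and histone genes of this family are so alike that these probe sets may not be specific to it.

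Promoters of cell cycle genes often carry CCAAT boxes, bound by NF-Y. The letters CCAAT, on either strand, were present in the 250 bases before the start of 18 of the 26 cell cycle genes with an entry (69.2%), against 9920 of 27457 genes (36.1%). They were present in 8 of 16 genes that rose (50%), 8 of 14 that fell (57.1%) and 9 of 26 NRF2 list genes (34.6%). Cdk1 and Plk1 are shown because they hold the box near the start, in capitals as spelled or as its reverse complement ATTGG. Its first base lies at -210, -81 and -49 in Cdk1 and at -38 in Plk1. Both are on the plus strand of GRCr8, at chr20:19265043-19265292 (Cdk1) and chr1:186147408-186147657 (Plk1).
Cdk1: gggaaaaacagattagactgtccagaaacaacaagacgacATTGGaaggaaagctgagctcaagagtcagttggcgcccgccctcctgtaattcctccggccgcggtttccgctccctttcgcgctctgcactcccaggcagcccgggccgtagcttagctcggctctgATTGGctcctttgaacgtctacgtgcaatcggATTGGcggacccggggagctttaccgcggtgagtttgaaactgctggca
Plk1: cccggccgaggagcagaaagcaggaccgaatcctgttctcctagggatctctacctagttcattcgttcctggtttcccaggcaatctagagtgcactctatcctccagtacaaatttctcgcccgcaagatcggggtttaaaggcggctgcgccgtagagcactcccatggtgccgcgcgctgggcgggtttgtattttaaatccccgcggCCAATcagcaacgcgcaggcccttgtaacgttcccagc

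**Figure D4:**
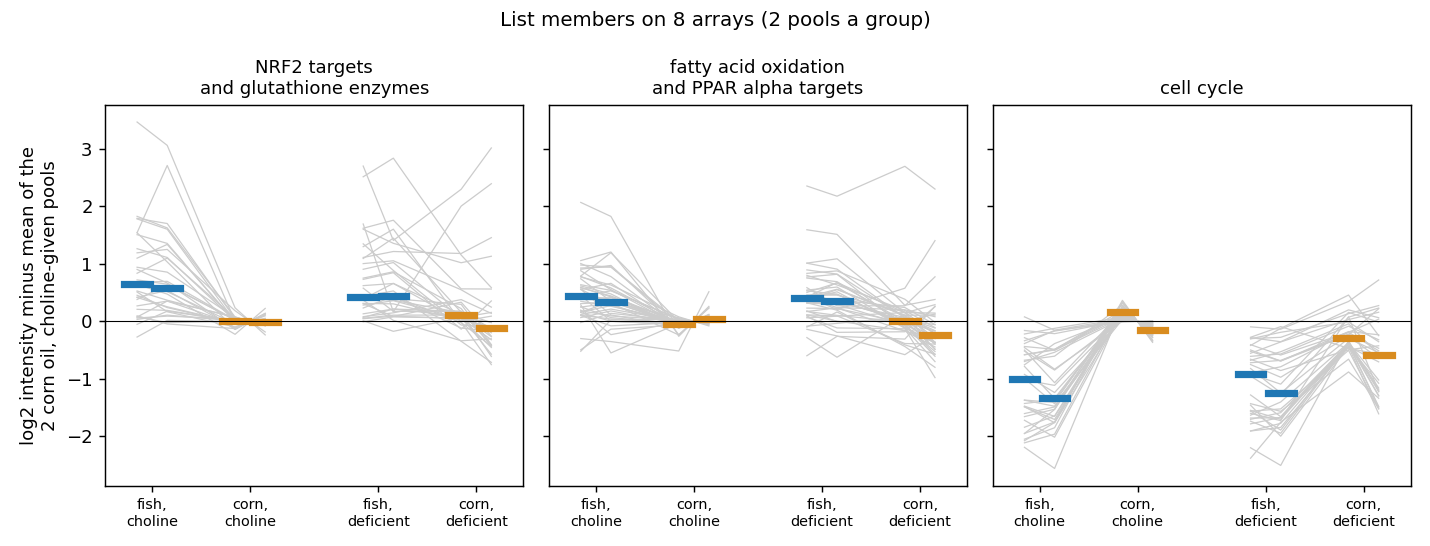
Each grey line joins the values of 1 gene over the arrays of a choline supply, as log2 intensity minus the mean of the 2 corn oil, choline-given pools, for 3 gene lists, and thick bars mark the list median in each pool (blue for fish oil, orange for corn oil). The medians of the NRF2 and fatty acid lists lie above 0 and that of the cell cycle list below 0 in both fish oil pools, with and without choline. The deficient corn oil pools also lie off this reference. Their mean list levels were 10.79 and 10.58 (NRF2), 10.84 and 10.65 (fatty acid) and 8.13 and 7.68 (cell cycle). In choline-given corn oil pools these were 10.47 and 10.48, 10.72 and 10.83, and 8.51 and 8.20.

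Extracellular matrix genes were lower with fish oil by smaller amounts. Of 31 measured members, 28 lay below corn oil without overlap (27% of all genes), 1 fell (0.131% of all genes), 19 were lower at an unadjusted p under 0.05, and the median was -0.45. The member that fell was Lum, the collagen-binding proteoglycan lumican, at 5.36 and 5.32 in fish oil pools and 6.48 and 6.80 in corn oil pools (-1.30 ± 0.16, adjusted p = 0.0277). Fn1, fibronectin, was at 10.81 and 10.87 in fish oil pools and 11.75 and 11.69 in corn oil pools (-0.88 ± 0.19, adjusted p = 0.142), and Col1a1, a chain of type I collagen, differed by -0.93 ± 0.20 (adjusted p = 0.143). Mfap4, a microfibril protein outside the list, also fell, at 8.80 and 9.12 in fish oil pools and 10.69 and 10.76 in corn oil pools (-1.76 ± 0.21, adjusted p = 0.0196). Mmp9, a gelatinase that neutrophils and other cells make, was at 7.50 and 7.91 in fish oil pools and 9.63 and 9.96 in corn oil pools, a difference of -2.08 ± 0.24 (adjusted p = 0.0196). It was the 1 of 14 neutrophil genes that fell (0.131% of all genes). The median of that list was -0.02, and the mean level of the list was 6.24 and 6.08 in fish oil pools and 6.32 and 6.33 in corn oil pools.

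Igf1, insulin-like growth factor 1, was at 9.58 and 9.92 in fish oil pools and 10.85 and 10.98 in corn oil pools (-1.17 ± 0.16, adjusted p = 0.0345), while Igfbp1, which binds that factor, rose by 1.41 ± 0.20 (adjusted p = 0.0442) with 11.40 and 11.47 in fish oil pools and 9.95 and 10.10 in corn oil pools. Prom1, a membrane protein of progenitor and injured tubular cells, fell at 8.17 and 8.10 in fish oil pools and 9.31 and 9.11 in corn oil pools (-1.07 ± 0.11, adjusted p = 0.0119). Sectm1b, a secreted and transmembrane protein, fell by 1.59 on the log2 scale (SE 0.14, adjusted p = 0.00918). The remaining named falls were Paep (-1.85 ± 0.27), Prima1 (-1.51 ± 0.15) and, between -1.14 and -0.87, Fgf13, Nnat, Nrep, Fat3, Flrt1, Slc39a10, Crispld1 and Arvcf. The remaining named rises were Csmd1, a complement control protein, at 9.25 and 9.24 in fish oil pools and 6.58 and 6.34 in corn oil pools (2.78 ± 0.16, adjusted p = 0.000594), Cldn17, a tight junction protein (1.58 ± 0.20), and the metal-binding metallothionein gene Mt1, whose 2 probe sets each rose by 1.11. Of the called probe sets, 4 that rose and 7 that fell had no gene name in the annotation used.

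Of 23 tubular injury genes, 1 fell with fish oil when choline was given and none rose (0.131% and 0.124% of all genes). Havcr1, the kidney injury molecule KIM-1, was at 6.49 and 6.37 in fish oil pools and 6.67 and 6.56 in corn oil pools (-0.19 ± 0.60, adjusted p = 0.921), so the 4 arrays lay close together. Lcn2, which encodes NGAL, differed by -0.55 ± 0.31 (adjusted p = 0.485), and the median of the list was -0.23, with Prom1 the gene that fell. Below corn oil without overlap lay 13 members (27% of all genes) and above it 4 (24.9% of all genes). Unadjusted p was under 0.05 in 5 lower members and 1 higher. Tff3, trefoil factor 3, was at 10.04 and 9.58 in fish oil pools and 10.77 and 11.07 in corn oil pools (-1.11 ± 0.26, adjusted p = 0.169). In the choline-deficient arrays the same list had a median of -1.08 and Havcr1 a difference of -4.21 (adjusted p = 0.0138). None of 32 cytokine, chemokine and NF-kB genes passed in limma (median -0.14, 7 with an unadjusted p under 0.05). Likewise none of 28 interferon and antigen presentation genes passed (5 with an unadjusted p under 0.05). All 28 differences were negative (median -0.42), against 7444 of all 14506 genes. The mean level of the interferon list was 8.26 and 7.67 in fish oil pools and 8.56 and 8.18 in corn oil pools, so fish oil pool 2 was the low array.

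In the lists of kidney, blood, fat and adrenal cell types, Mmp9 was the 1 gene called. Of 29 proximal tubule genes none passed (6 were lower at an unadjusted p under 0.05), with a median of -0.17, and Slc5a2, the glucose carrier SGLT2, was the nearest at -0.60 ± 0.12 (adjusted p = 0.111). Medians were -0.14 for 8 thick ascending limb genes, -0.04 for 8 distal convoluted and connecting tubule genes, -0.04 for 21 collecting duct genes, -0.14 for 10 podocyte genes and -0.10 for 17 endothelial genes. The 22 monocyte and macrophage genes had a median of -0.37, none passed (9 were lower at an unadjusted p under 0.05), and their mean level was 8.09 and 8.08 in fish oil pools and 8.35 and 8.43 in corn oil pools. For lymphocyte, erythroid, fat and adrenal gland genes the medians were -0.04, -0.35, -0.12 and 0.26, and none passed. The part of cell mixture in the differences above was not tested. Calb1, the calbindin gene of the distal nephron, was at 10.50 and 11.41 in fish oil pools and 12.29 and 12.13 in corn oil pools (-1.26 ± 0.31, adjusted p = 0.192), so fish oil pool 1 was the lowest array.

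Other lists had no called gene. Medians were -0.15 over 35 eicosanoid genes, -0.17 over 15 vitamin D, calcium and phosphate genes, -0.14 over 17 retinoid genes, -0.09 over 17 circadian clock genes and 0.09 over 28 choline, betaine and one-carbon genes. They were -0.22 over 26 complement, coagulation and acute phase genes, 0.10 over 26 immediate early genes, -0.04 over 31 heat shock and chaperone genes, 0.05 over 16 ATF4 targets, -0.12 over 21 genes of glucose and fructose metabolism and -0.26 over 17 renin-angiotensin and vasoactive genes. Higher and lower members with unadjusted limma p under 0.05 numbered 3 and 5 (eicosanoid), 2 and 4 (vitamin D) and 2 and 5 (retinoid). They numbered 0 and 4 (clock), 1 and 2 (choline), 0 and 5 (complement) and 3 and 0 (immediate early). For the other lists they were 1 and 0 (heat shock), 4 and 1 (ATF4), 0 and 0 (glucose) and 0 and 2 (renin-angiotensin). In the vitamin D list S100g differed by 0.92 ± 0.16 (adjusted p = 0.082) and Trpv5 by -0.91 ± 0.19 (adjusted p = 0.135). Alb, the serum albumin gene, was at 10.17 and 8.49 in fish oil pools and at 11.32 and 12.18 in corn oil pools (-2.43 ± 1.19, adjusted p = 0.443). Chka, which encodes choline kinase, overlapped between the oils (0.07 ± 0.14), and Ephx2, the soluble epoxide hydrolase that acts on fatty acid epoxides, was at 11.18 and 11.05 in fish oil pools and 10.61 and 10.70 in corn oil pools without passing (0.46 ± 0.16, adjusted p = 0.326).

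The oil contrast in choline-deficient kidneys came from 4 other arrays, fitted with the same estimate of spread. There, 101 probe sets rose (0.346%) and 406 fell (1.39%). Without deficient fish oil pool 1 or 2 these counts were 21 higher and 116 lower or 8 higher and 79 lower, and without deficient corn oil pool 1 or 2 they were 230 higher and 461 lower or 29 higher and 210 lower. Of the 25 probe sets that rose with choline given, 17 were also above corn oil in the deficient arrays (51.8% of all probe sets were) and 15 rose there too. Of the 29 that fell, 26 were also below corn oil (48.2% of all probe sets were) and 9 fell there too. The median difference of the 25 was 1.52 with choline and 1.13 without, and that of the 29 was -1.22 with choline and -0.52 without. These probe sets were chosen for passing with choline given, so the medians of the 2 supplies are not on equal terms. Genes that rose under both supplies included Ugt2b7, Csmd1, Pir, Nqo1 (1.81 ± 0.29 without choline), Abcc2 (1.56 ± 0.14), Creb3l3 (1.63 ± 0.19), Gstp1 (1.13 ± 0.13) and Abcc4, and Scd (-1.96 ± 0.26) and Sectm1b (-1.13 ± 0.14) fell under both. List medians without choline were 0.49 for NRF2 targets, 0.49 for fatty acid oxidation and -0.64 for the cell cycle. The cell cycle list was at 7.27 and 7.22 in deficient fish oil pools and at 8.13 and 7.68 in deficient corn oil pools.

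**Figure D5:**
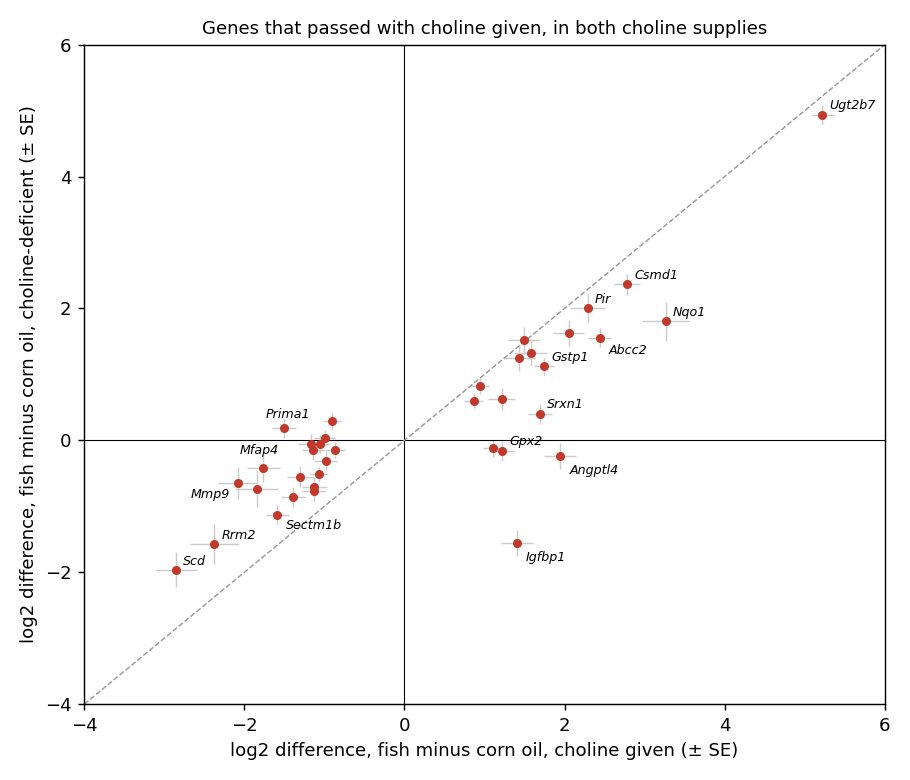
Log2 difference (fish oil minus corn oil) of the 37 genes that passed with choline given, on the horizontal axis with choline and on the vertical axis without, with standard errors as grey bars and equal differences on the dashed line. Ugt2b7, Csmd1, Pir and Scd have the same sign under both supplies, while Igfbp1 was 1.41 with choline and -1.56 without.

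Whether the oil difference itself changed with choline supply was tested as the interaction. It passed for 30 probe sets, 28 above 0 (0.0958%) and 2 below (0.00685%), and 26 of the 30 also passed in the deficient oil contrast. Of the 30, 4 were among the 54 called with choline given: Igfbp1, Angptl4, Prima1 and an unnamed probe set. Igfbp1 was at 11.40 and 11.47 in choline-given fish oil pools and 9.95 and 10.10 in choline-given corn oil pools, but at 11.78 and 11.29 in deficient fish oil pools and 13.29 and 12.88 in deficient corn oil pools. The interaction was 2.96 ± 0.28 (adjusted p = 0.0125). Angptl4 was at 10.40 and 10.22 in deficient fish oil pools and 10.74 and 10.35 in deficient corn oil pools, so that the choline-given corn oil pools were its low group (interaction 2.18 ± 0.28, adjusted p = 0.045). In Srxn1 and Gpx2 the oil differences were 0.40 and -0.15 without choline, and their interactions did not pass (1.29 ± 0.21, adjusted p = 0.093, and 1.38 ± 0.21, adjusted p = 0.072). The 2 Mt1 probe sets differed by -0.12 and -0.14 without choline. Their interactions did not pass (1.23 ± 0.18 and 1.24 ± 0.18, adjusted p = 0.059 in both). The first was at 14.52 and 14.44 in choline-given fish oil pools and 13.52 and 13.23 in choline-given corn oil pools. In deficient corn oil pools it was at 14.54 and 14.48, near the highest intensity on any array (14.72). For Ugt2b7 the interaction was 0.28 with a 95% interval of -0.19 to 0.75. Leaving out fish oil pool 1, fish oil pool 2, corn oil pool 1 or corn oil pool 2 of the choline-given kidneys left 0 interaction calls in limma in each case, with 1018 to 1822 probe sets above 0 and 654 to 1357 below 0 at an unadjusted p under 0.05.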

How the data were processed

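Kidney RNA of 10 pools, each of 3 rats, was measured on 10 expression arrays. The authors deposited 1 log2 intensity per probe set and array, made with RMA per the submitters' processing notes. Its software, version, probe set definition and genome build were not given in the sources used here. Intensities were 1.62 at the lowest and 14.72 at the highest, array medians lay within 7.28 to 7.43, and nothing was rescaled or filtered. The number of arrays limits the precision, and replicates are pools of animals, so p-values measure the spread between pools.

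Of 29214 probe sets, 15310 had 1 gene symbol, 323 had several and 13581 were not listed in the platform annotation. By Entrez number, 15279 were matched to the current gene table (GRCr8), which changed 0 symbols. This named 14506 genes. Where a gene had several probe sets, its list value came from the one with the highest 10-array mean.

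A limma 3.58.1 model (R 4.3.3; functions lmFit and eBayes) held all 5 groups of 2 arrays. Its residual degrees of freedom were 5 and its prior ones 3.59. The median difference over all probe sets was 0.03 and the median standard error 0.154. Each contrast had its Benjamini-Hochberg adjustment over the 29214 probe sets, at a threshold of 0.05, and every adjusted p in the text is of this kind. The script was tested on simulated data. Tables, promoter searches and figures were made with Python 3.11.15, pandas 2.3.3, numpy 2.4.6 and matplotlib 3.10.9.

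The naming rule took the 12 largest called rises and the 12 largest called falls that have 1 symbol, up to 6 called members of each list, and the 2 members with the smallest p where fewer than 2 passed. Other called genes, and further list members given as values, were chosen after their values were seen. The comparison, the 35 gene lists (759 of 853 genes measured) and the motifs were chosen with earlier results of these data known. Lists were described by counts and medians and not tested.

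Samples with the same replicate number did not deviate together: the correlation across probe sets of the pool 1 minus pool 2 differences of the oils was -0.0739. The numbers therefore were not used as pairs. Alternatives tried were other sets of arrays, the replicate number as a block, 3 normalizations, 2 filters on low values, another variance prior, the mean of a gene's probe sets for its list value, and leaving out each pool.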

Additional observations from a re-analysis of the deposited data

Results flagged for a closer look

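For 6 probe sets described here, the oil difference was not the same with and without choline by the interaction test of the fit over all groups. Igfbp1 (interaction 2.96, adjusted p = 0.0125) and Angptl4 (2.18, adjusted p = 0.045) rose with fish oil when choline was given, and Prima1 (-1.69, adjusted p = 0.0431), which encodes the membrane anchor of acetylcholinesterase, fell. An unnamed probe set, 10937867, was at 13.99 and 13.82 in fish oil pools and 12.58 and 12.20 in corn oil pools with choline, and at 13.75 and 13.80 in fish oil pools and 13.95 and 13.90 in corn oil pools without (interaction 1.67, adjusted p = 0.0435).

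Myc, a transcription factor of growth, and Chac1, a glutathione-degrading enzyme of the ATF4 response, did not pass with choline given (0.82 ± 0.17 and 0.75 ± 0.15, adjusted p = 0.138 and 0.133). Without choline both fell with fish oil. Myc was at 8.94 and 8.70 in deficient fish oil pools and 10.04 and 10.44 in deficient corn oil pools (interaction 2.24, adjusted p = 0.0242), and Chac1 was at 7.67 and 7.70 in deficient fish oil pools and 8.57 and 8.62 in deficient corn oil pools (interaction 1.66, adjusted p = 0.0451). In Igfbp1, Myc and Chac1 the deficient corn oil pools were the highest of the 4 groups.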

How the results depend on the processing

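With 2 pools a side, the number of called probe sets depended on the fit. Of 210 recomputed list medians, 191 moved by less than the spread between pools. Most of the 210 left out 1 of 2 pools, and such a shift can hardly exceed that spread. The count was therefore largely fixed in advance and does not show stability. No probe set taken by the naming rule changed direction under any alternative tried. This too was largely fixed in advance. The pools of the 2 oils did not overlap in any of these probe sets, so leaving out 1 pool could not reverse them. Other sets of arrays, the block, the filters and the other prior leave the difference of group means as it was. Further genes given as values were not checked for a change of direction. In Gclc, fish oil pool 2 lay below both corn oil pools, so its sign depends on fish oil pool 1. Against 25 higher and 29 lower probe sets, a fit on only the 4 arrays compared gave 5 and 0, leaving out the necrotic pools gave 28 and 48, keeping probe sets above the 25th percentile gave 44 and 71, keeping those above the 50th gave 45 and 73, and a trend and robust prior gave 50 and 74. Leaving out 1 pool gave 3 to 5 higher and 0 to 1 lower. Median centring, quantile normalization again and cyclic loess kept 52, 48 and 49 of the 54 calls. Of the 6 NRF2 list genes that rose, 0 passed on the 4 arrays alone and 0 to 1 with 1 pool left out, while the count at least 2-fold higher stayed at 10 to 11. Against 1 cell cycle gene that fell, the counts were 0 on the 4 arrays alone and 0 with any pool left out, 4 without the necrotic pools, 5 and 6 under the filters and 4 with the trend and robust prior. At least 2-fold lower without overlap were 17 to 21 of the 35. The ranges of the 2-fold counts, for the NRF2 and the cell cycle list, come from median centring, averaging of probe sets and leaving out 1 pool. Leaving out a pool makes non-overlap easier to reach, so neither range shows stability. Against 30 interaction calls there were 14 without the necrotic pools, 61 and 87 under the filters, 67 with the trend and robust prior and 0 to 90 with 1 pool left out, of which 7 without deficient fish oil pool 2 and 90 without deficient corn oil pool 1. For the oil effect without choline the alternatives were chosen after seeing the data: against 101 higher and 406 lower, there were 154 and 216 higher under the filters, 187 higher with the trend and robust prior, and 8 to 230 higher and 79 to 461 lower with 1 pool left out. Why these counts moved was not tested.

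With the replicate number as a block, 20 probe sets were higher and 21 lower, 39 of the 54 calls passed again, and 11 interactions passed. No other count above changed by over 1.5 times with that block.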
